A study of Homo sapiens with 2 samples.

Results

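The 10 genes described here, PEG3, PEG10, MEST, PLAGL1, KCNQ1OT1, SNRPN, NDN, PHLDA2, CDKN1C and GRB10, are human imprinted genes, chosen by symbol from the 36601 genes of a single-cell RNA-Seq dataset. All 10 had a row in both count matrices. The cells came from LNCaP_C4-2B, a castration-resistant strain derived in vivo from the human prostate carcinoma line LNCaP, and from LNCaP_FGC, the commonly distributed form of that line, which was never clonally selected. Both were kept in steady state in RPMI1640 with serum and antibiotic and received no treatment. A single library was made from each, so the comparison has no replicates, no p-value is given, and all intervals below are 95% intervals that cover counting error only. The libraries carry different batch labels, and strain and batch cannot be told apart. Each library held 1850 cells, with 35149989 UMIs (unique molecules counted) in LNCaP_C4-2B and 35150013 in LNCaP_FGC, and no cell barcode was found in both. The median cell had 17566.5 UMIs in LNCaP_C4-2B and 18292 UMIs in LNCaP_FGC.

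Imprinted genes are transcribed mainly or only from the copy inherited from the father, or from the copy inherited from the mother, according to DNA methylation laid down in the germ line at control regions. They lie in clusters that often pair protein-coding genes with long noncoding RNAs, and many act on fetal growth, placental development and cell proliferation. Imprinted expression is often disturbed in tumors, either by loss of the silent state of the silent copy or by silencing or loss of the active copy. The counts here do not separate the parental copies, so they give the summed output of each gene and say nothing about which copy it came from.

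Cell identity was checked with marker genes. All 8 luminal prostate markers were measured in both lines, and their summed level was 5270 CPM (the library-scaled UMI count) in LNCaP_C4-2B and 2877 CPM in LNCaP_FGC. The summed fibroblast, immune and endothelial markers reached at most 2.16 CPM in LNCaP_C4-2B and 5.60 CPM in LNCaP_FGC. COL1A2, DCN, PTPRC, CD3E and CDH5 had no UMI in either line. Most of these sums came from COL1A1, with 30 UMIs in LNCaP_C4-2B and 177 in LNCaP_FGC, and VWF, with 32 in LNCaP_C4-2B and 122 in LNCaP_FGC. For the immune markers it was CD68, with 74 in LNCaP_C4-2B and 50 in LNCaP_FGC. A gene counted as measured with at least 10 UMIs over both libraries, which 17897 genes reached. By CPM the log2 ratio of LNCaP_C4-2B over LNCaP_FGC was -0.49 for the median measured gene, so differences were read against it, and a gene was called higher or lower when it stood at least 1.5-fold above or below this median gene.

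PEG10, MEST, PLAGL1, SNRPN, NDN, PHLDA2 and CDKN1C were called higher in LNCaP_C4-2B, PEG3 alone was called lower, and GRB10 and KCNQ1OT1 were within the fold. Thus 7 of 10 were higher and 1 of 10 was lower, where over all measured genes 26% were called higher and 26.4% lower. Read on CPM alone, with no shift to the median gene, 5 of 10 were higher, without SNRPN and NDN, and 2 of 10 lower, GRB10 with PEG3, where 13.6% of all measured genes were higher and 45.2% lower. The 10 genes had a median log2 ratio of 0.64 by CPM, or 1.12 relative to the median gene. Their summed output was 700.5 CPM in LNCaP_C4-2B and 667 CPM in LNCaP_FGC, and without PEG3 it was 698 CPM in LNCaP_C4-2B and 505 CPM in LNCaP_FGC.

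**Figure D1:**
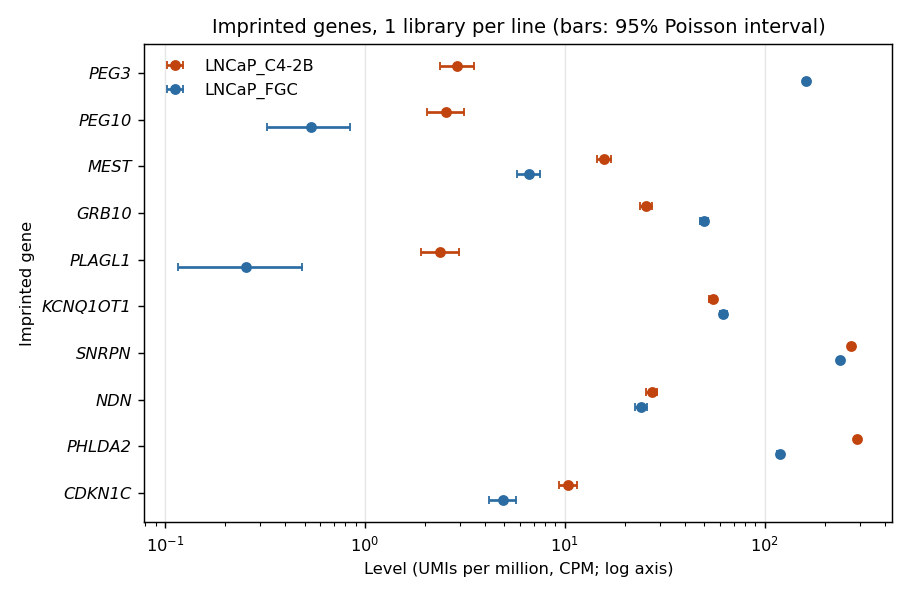
Level of each imprinted gene in the LNCaP_C4-2B library (orange, upper point) and the LNCaP_FGC library (blue, lower point), in CPM on a log axis, with 95% Poisson intervals. PEG3 stands at 2.90 CPM in LNCaP_C4-2B and 162 CPM in LNCaP_FGC, and the intervals of the lines are also apart for PEG10, MEST, PLAGL1, SNRPN, PHLDA2 and CDKN1C, higher in LNCaP_C4-2B, and for GRB10 and KCNQ1OT1, lower in LNCaP_C4-2B by CPM, while those of NDN overlap. The intervals cover counting error only, and the share of all measured genes with intervals apart was not counted.

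PEG3 encodes a zinc finger protein that is normally expressed from the paternal copy and is known in mice for its part in fetal growth and maternal behavior. The gene lies on chromosome 19 (chr19:56810077-56840728, minus strand, GRCh38). It had 102 UMIs (2.90 CPM) in LNCaP_C4-2B and 5692 UMIs (162 CPM) in LNCaP_FGC, a log2 ratio of -5.32 relative to the median gene, lower than in all but 0.285% of measured genes. In LNCaP_C4-2B, 95 of 1850 cells (5.14%, 4.17 to 6.24) held a PEG3 UMI, 90 of them only 1, and the largest count was 3. An even spread of those UMIs over the cells would give 5.35% of cells with a UMI, within the interval of the observed share. The 95 cells held no UMI of ETV1, which had 5426 UMIs in LNCaP_FGC, and their KLK3 level was 2798 CPM, against 2769 CPM in the LNCaP_C4-2B cells without PEG3.

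PEG3 was very unevenly spread over the cells of LNCaP_FGC. A UMI was found in 1127 of 1850 cells (60.9%, 58.7 to 63.2), where an even spread of 5692 UMIs would give 93.2%. There were 723 cells with none, 484 with 1, 242 with 2 and 401 with 3 or more, and the richest cell had 149. The 114 cells with at least 10 UMIs (6.16% of cells) held 3466 UMIs, 60.9% of all, and only 68 cells held 50% of them. The 10-UMI limit was set after the counts were seen and cuts through a continuous range: 27 cells had 8 or 9 UMIs and 15 had 10 or 11. When each cell was thinned at random to 11901 UMIs, which 1623 LNCaP_FGC cells reached, the variance of PEG3 was 16.1 times its mean. This was above all 511 genes within 25% of its mean, whose median was 1.16. In LNCaP_C4-2B at the same depth, with 1665 cells, it was 1.03.

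**Figure D2:**
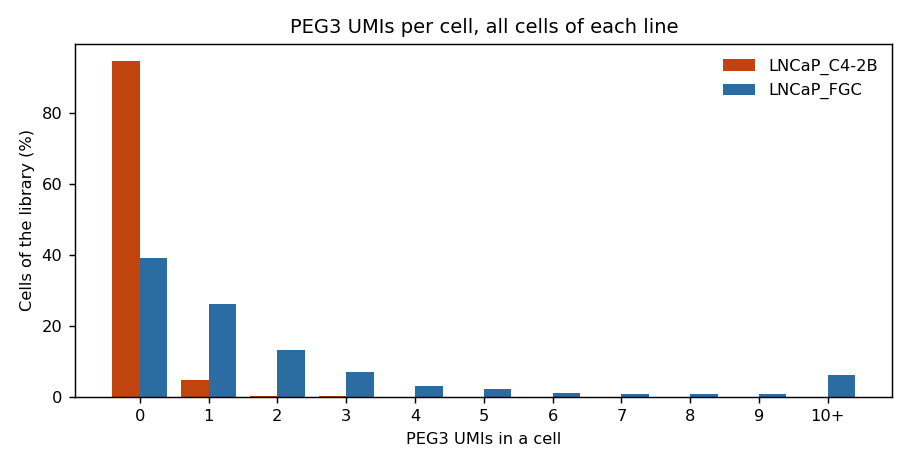
Share of cells (percent of the 1850 cells of a library) by the number of PEG3 UMIs in the cell, for LNCaP_C4-2B (orange, left bars) and LNCaP_FGC (blue, right bars). In LNCaP_C4-2B 5.14% of cells have a UMI and none has more than 3, while LNCaP_FGC has a long tail ending in 114 cells with 10 or more.

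The difference between lines did not rest on the rich cells alone. Without the 114 cells, an alternative chosen after seeing the data, PEG3 was at 68.0 CPM in LNCaP_FGC, and LNCaP_C4-2B was 23.5-fold lower (19.2 to 28.9). The rich cells were deeper, with a median of 20741.5 UMIs against 18123.5 in the other LNCaP_FGC cells, and 66.7% of them were called G1 against 42.3% of the others.

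The genes at the PEG3 locus were lower in LNCaP_C4-2B together with it. ZIM2 shares its start site region with PEG3 (starts 3 bases apart in the annotation) and is a zinc finger gene of the same cluster, and MIMT1 is a noncoding RNA that starts 138 bases away on the other strand. ZIM2 had 0 UMIs in LNCaP_C4-2B and 86 in LNCaP_FGC. With the 0 set at a floor of 3 UMIs per library (0.0853 CPM), it was 28.7-fold lower. The exact interval put it at least 22.8-fold lower. MIMT1 had 0 UMIs in LNCaP_C4-2B and 200 in LNCaP_FGC, 66.7-fold lower on the same floor and at least 53.7-fold lower by the exact interval. USP29, the paternally expressed gene next to MIMT1, had 0 UMIs in LNCaP_C4-2B and 10 in LNCaP_FGC, 9 of them in a single cell (named after its values were seen). On the other side, the nearest measured gene, ZNF71, had a log2 ratio of -0.00 relative to the median gene. ZIM2, PEG3 and MIMT1 overlap or adjoin each other, and since the sources used here give neither the strand setting nor the treatment of shared exons, their separate counts are uncertain.

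Farther out, 18 measured genes had a start within 500 kb of PEG3, most of them zinc finger genes. Of these 10 were called lower in LNCaP_C4-2B and 0 higher, and their median log2 ratio was -0.78 relative to that of all measured genes, with ZIM2, MIMT1 and USP29 set at the floor. The highest ratio among them was that of AURKC, with 16 UMIs in LNCaP_C4-2B and 15 in LNCaP_FGC. Within 1000 kb, 27 of 45 genes were lower and 2 higher. Over all measured genes, 26.4% were called lower and 26% higher. DNA copy number was not analysed here, and its part in these values was not tested.

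**Figure D3:**
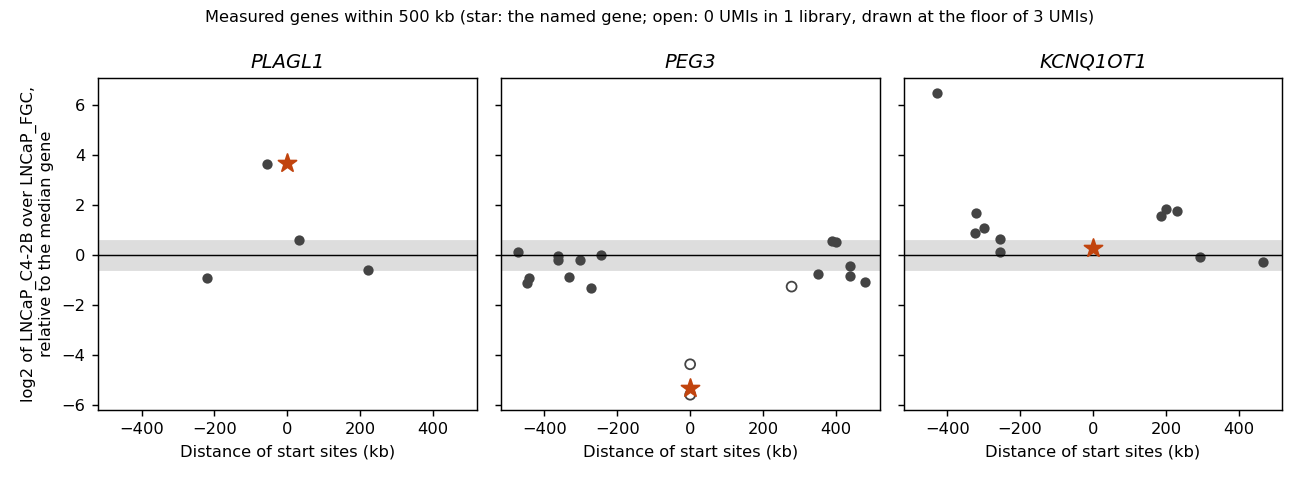
Log2 ratio of LNCaP_C4-2B over LNCaP_FGC relative to the median gene (0) for measured genes whose start lies within 500 kb of PLAGL1, PEG3 or KCNQ1OT1, against the distance between start sites in kb. The star is the named gene, the gray band is the 1.5-fold range, and open circles are genes with 0 UMIs in 1 library, drawn at the floor of 3 UMIs. Beside PEG3, ZIM2 and MIMT1 stand at the floor, near PEG3 itself, beside PLAGL1, HYMAI is as high as PLAGL1, and around KCNQ1OT1 8 of 11 genes are called higher, against 26% of all measured genes.

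Over LNCaP_FGC cells at the fixed depth, the gene whose level was most like that of PEG3 was AC006115.2, with a Pearson r of 0.64 over 1623 cells (log-scaled UMIs, among 6448 genes with at least 20 CPM). No position could be matched to this clone-based name. CAMK2N1, which encodes an inhibitor of the kinase CaMKII, followed at 0.35, then ACPP (prostatic acid phosphatase) at 0.27, KLK3 (prostate-specific antigen) at 0.25, the histone gene H2AFJ at 0.25 and the ribosomal protein gene RPL35A at 0.24. The cells share 1 library and 1 depth, and these values are descriptions. Between lines these genes did not follow PEG3 as a group. AC006115.2 was lower in LNCaP_C4-2B by 50.7-fold (36.5 to 72.7), with 36 UMIs against 1826 in LNCaP_FGC. ACPP was 24.0-fold lower and CAMK2N1 9.41-fold lower in LNCaP_C4-2B. KLK3 was 3.55-fold higher, H2AFJ 6.10-fold higher and RPL35A 1.23-fold higher in LNCaP_C4-2B by CPM.

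Cells were then grouped by their PEG3 count at the fixed depth. AC006115.2 was at 18.5 CPM in the 796 cells with no PEG3 UMI, 59.3 CPM in the 112 cells with 3 or 4, and 860 CPM in the 38 cells with 20 or more. ZIM2 was at 0.844, 4.50 and 33.2 CPM in the same groups. MIMT1 was at 3.06, 9.0 and 15.5 CPM, a shallower slope than that of ZIM2 and AC006115.2. For each 100 PEG3 UMIs there were 0.718 MIMT1 UMIs (0.370 to 1.26) in the 70 cells with 10 or more PEG3 UMIs and 8.96 (6.88 to 11.5) in the 1384 cells with 0 to 2. The matching values for AC006115.2 were 30.7 (27.7 to 33.9) in the 70 cells, 22.6 (19 to 26.8) in the 169 cells with 3 to 9 PEG3 UMIs and 49.7 (43.8 to 56.3) in the 1384 cells, so they did not follow a steady course. MIMT1 was at 2.98 (1.86 to 4.55) in the 169 cells. Since the cells were sorted by PEG3 itself, these ratios are descriptions. Free RNA in the droplets was not measured, and no cell type that should lack PEG3 was present in LNCaP_FGC.

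Other imprinted genes with enough UMIs showed no such slope. SNRPN was at 230 CPM in cells without PEG3 and 301 CPM in cells with 20 or more, PHLDA2 at 123 and 97.3 CPM, and GRB10 at 43.4 and 44.2 CPM. CDKN1C was at 5.28 CPM (50 UMIs) in cells without PEG3 and 2.21 CPM (1 UMI) in those with 20 or more, where the count is too low to order. PEG10 and PLAGL1 had 2 UMIs each in cells without PEG3 and 0 in those with 20 or more, too few to tell.

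**Figure D4:**
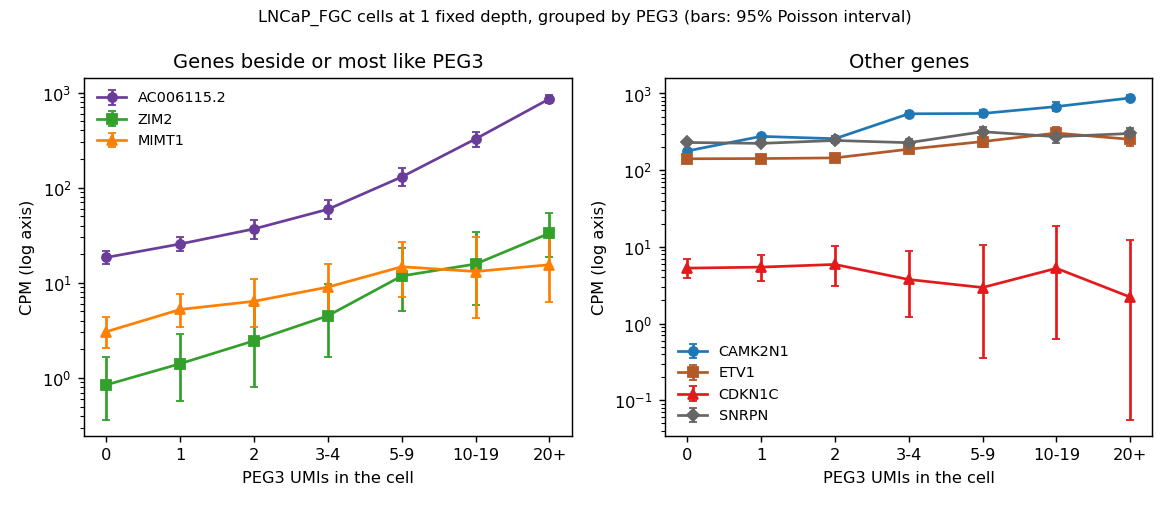
Level (CPM, log axis, 95% Poisson intervals) of genes in LNCaP_FGC cells at the fixed depth of 11901 UMIs, grouped by the number of PEG3 UMIs in the cell. AC006115.2 goes through 18.5, 59.3 and 860 CPM in cells with 0, 3 or 4, and 20 or more PEG3 UMIs. ZIM2 has a similar slope and MIMT1 a shallower one, and SNRPN shows no such slope. CDKN1C has 1 UMI in cells with 20 or more PEG3 UMIs, too few to order. CAMK2N1 stands at 178 CPM in cells with no PEG3 UMI and 873 CPM in those with 20 or more, ETV1 at 141 CPM and 252 CPM.

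PLAGL1 and MEST are further paternally expressed genes, and PLAGL1 had the largest ratio of the 10. PLAGL1 encodes a zinc finger factor linked to cell cycle arrest and, when overexpressed from birth, to transient neonatal diabetes. It had 84 UMIs (2.39 CPM) in LNCaP_C4-2B and 9 UMIs (0.256 CPM) in LNCaP_FGC, a ratio of 9.33 (4.69 to 21.1). The cells with a UMI were 4.27% in LNCaP_C4-2B and 0.486% in LNCaP_FGC, each close to the share for an even spread (4.43% in LNCaP_C4-2B and 0.485% in LNCaP_FGC). HYMAI, a noncoding RNA that starts at an internal PLAGL1 promoter, had 45 UMIs in LNCaP_C4-2B and 5 in LNCaP_FGC, a ratio of 9.0 (3.58 to 29.1). SF3B5, the nearest measured gene on the other side, had a ratio of 1.08 and was called higher, just past the limit (log2 0.59 relative to the median gene). LTV1, the lowest in the window, had a ratio of 0.384.

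MEST encodes a protein of the alpha/beta hydrolase family expressed in mesoderm. It had 553 UMIs (15.7 CPM) in LNCaP_C4-2B and 233 UMIs (6.63 CPM) in LNCaP_FGC, a ratio of 2.37 (2.03 to 2.78). A UMI was seen in 25.4% of LNCaP_C4-2B cells and 11.3% of LNCaP_FGC cells, again close to an even spread (25.4% in LNCaP_C4-2B and 11.8% in LNCaP_FGC). MESTIT1, a noncoding RNA on the opposite strand within the locus, had 89 UMIs in LNCaP_C4-2B and 11 in LNCaP_FGC, a ratio of 8.09 (4.31 to 16.8). CEP41, the nearest gene on the other side, had a ratio of 0.839. MEST and MESTIT1, PLAGL1 and HYMAI, and KCNQ1OT1 and KCNQ1 overlap in the annotation, and with the strand setting not known their split of reads is uncertain.

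The promoters of PLAGL1 and MEST nearest to the starts of HYMAI and MESTIT1 are shown because gene and noncoding partner were higher together, and that of SNRPN at SNURF because SNRPN differed little. They come from RefSeq (GRCh38.p14), 250 bases before to 50 after a start. That start lay 3 bases from the HYMAI start for PLAGL1, 296 from the MESTIT1 start for MEST and 0 from the SNURF start for SNRPN. MEST, GRB10, PLAGL1, SNRPN and NDN (5 of the 10 genes) matched an entry, and PEG3, PEG10, KCNQ1OT1, PHLDA2 and CDKN1C did not. Capitals mark CpG dinucleotides, the sites of DNA methylation. The windows are chr6:144008210-144008509 (minus strand), chr7:130491079-130491378 (plus strand) and chr15:24954737-24955036 (plus strand).
PLAGL1: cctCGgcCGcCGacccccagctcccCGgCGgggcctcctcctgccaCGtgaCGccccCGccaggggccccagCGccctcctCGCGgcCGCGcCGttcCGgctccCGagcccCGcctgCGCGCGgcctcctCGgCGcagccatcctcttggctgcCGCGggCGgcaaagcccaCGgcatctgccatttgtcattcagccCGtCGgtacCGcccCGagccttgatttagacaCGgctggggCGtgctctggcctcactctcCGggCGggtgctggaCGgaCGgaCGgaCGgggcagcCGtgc
MEST: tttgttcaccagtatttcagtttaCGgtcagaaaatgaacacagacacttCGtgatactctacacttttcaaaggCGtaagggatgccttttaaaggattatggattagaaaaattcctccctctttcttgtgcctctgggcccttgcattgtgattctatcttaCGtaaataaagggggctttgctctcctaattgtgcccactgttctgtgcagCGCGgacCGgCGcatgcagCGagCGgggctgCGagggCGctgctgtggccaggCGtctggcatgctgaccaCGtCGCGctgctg
SNRPN: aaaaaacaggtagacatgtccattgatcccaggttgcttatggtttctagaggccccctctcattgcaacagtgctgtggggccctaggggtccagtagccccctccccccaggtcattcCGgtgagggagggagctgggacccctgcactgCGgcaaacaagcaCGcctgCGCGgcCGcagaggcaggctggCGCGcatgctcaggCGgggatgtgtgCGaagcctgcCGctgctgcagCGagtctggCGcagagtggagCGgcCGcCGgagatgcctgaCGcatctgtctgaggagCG
The PLAGL1 window holds 39 CpGs, more than 91.3% of all 35116 promoter windows, the MEST window 16 and the SNRPN window 18, against a median of 14. The hexamer TGCCGC, which the imprint-protecting factor ZFP57 binds when methylated, was searched on both strands (TGCCGC or GCGGCA). It occurs 2 times in the PLAGL1 window, 2 times in the SNRPN window and not in the MEST window shown, and 16.7% of all windows hold it. The other MEST windows, starting at chr7:130485925, chr7:130486097, chr7:130491808 and chr7:130491835, hold it 1, 1, 2 and 3 times. Among all 20 windows of the 5 matched genes, some of which overlap, 9 hold it. ZFP57 itself had 0 UMIs in LNCaP_C4-2B and 1 in LNCaP_FGC (named after its values were seen).

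PEG10 is a paternally expressed gene derived from a retrotransposon and is known in placenta and in neuroendocrine prostate cancer. It had 90 UMIs (2.56 CPM) in LNCaP_C4-2B and 19 UMIs (0.541 CPM) in LNCaP_FGC, a ratio of 4.74 (2.86 to 8.23). Its cells with a UMI were 3.57% in LNCaP_C4-2B and 0.973% in LNCaP_FGC. In LNCaP_C4-2B its variance at the fixed depth was 1.53 times the mean, above 99.2% of genes of like mean, and a single cell held 7 UMIs. The nearest measured genes, CASD1 and PPP1R9A, had ratios of 0.827 and 1.11, and PPP1R9A was called higher (log2 0.63 relative to the median gene).

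SNRPN and NDN lie in the Prader-Willi region of chromosome 15 and are paternally expressed, SNRPN as part of the spliceosome and NDN as a growth-restraining MAGE protein. SNRPN had 9473 UMIs (269.5 CPM) in LNCaP_C4-2B and 8334 UMIs (237 CPM) in LNCaP_FGC, and it was found in 97.7% of LNCaP_C4-2B cells and 96.3% of LNCaP_FGC cells. NDN had 959 UMIs (27.3 CPM) in LNCaP_C4-2B and 851 UMIs (24.2 CPM) in LNCaP_FGC, with a UMI in 39.3% of LNCaP_C4-2B cells and 35.3% of LNCaP_FGC cells. By CPM the ratio was only 1.14 (1.10 to 1.17) for SNRPN and 1.13 (1.03 to 1.24) for NDN. Against the lower median gene their log2 ratios were 0.67 and 0.66, just past the limit of 1.5-fold, and neither was called at 2-fold. Both were spread over cells like other genes of their level. SNHG14, the long noncoding RNA that runs on from SNRPN, had 7093 UMIs in LNCaP_C4-2B and 15121 in LNCaP_FGC, a ratio of 0.469 (0.456 to 0.482), opposite in direction to SNRPN on both scales (log2 -0.61 against the median gene). SNURF, which shares its transcript with SNRPN, had 34 UMIs in LNCaP_C4-2B and 57 in LNCaP_FGC, and MKRN3 beside NDN had 38 in LNCaP_C4-2B and 65 in LNCaP_FGC. SNURF, SNRPN and SNHG14 overlap, and their split of reads is uncertain.

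KCNQ1OT1, PHLDA2 and CDKN1C lie in the imprinted domain of chromosome 11p15, with KCNQ1OT1 as the paternally expressed noncoding RNA that silences the domain in cis, and PHLDA2 and CDKN1C as maternally expressed restraints of growth. KCNQ1OT1 had 1931 UMIs (54.9 CPM) in LNCaP_C4-2B and 2187 UMIs (62.2 CPM) in LNCaP_FGC. It was lower by CPM (ratio 0.883, 0.830 to 0.939) but above the median gene (log2 0.31), so its direction depends on the scaling, and it was not called. A UMI was seen in 53.9% of LNCaP_C4-2B cells and 56.8% of LNCaP_FGC cells, below the 62.7% in LNCaP_C4-2B and 67.2% in LNCaP_FGC of an even spread. Its counts were thus more uneven than most, with a variance above that of 97.0% of like genes in LNCaP_C4-2B and 96.5% in LNCaP_FGC.

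PHLDA2, a pleckstrin-homology protein known for limiting placental growth, was called higher in LNCaP_C4-2B. It had 10165 UMIs (289 CPM) in LNCaP_C4-2B and 4186 UMIs (119 CPM) in LNCaP_FGC, a ratio of 2.43 (2.34 to 2.52), and a UMI in 96.4% of LNCaP_C4-2B cells and 78.8% of LNCaP_FGC cells. CDKN1C encodes the cyclin-dependent kinase inhibitor p57. It had 366 UMIs (10.4 CPM) in LNCaP_C4-2B and 172 UMIs (4.89 CPM) in LNCaP_FGC, a ratio of 2.13 (1.77 to 2.57), with a UMI in 13.9% of LNCaP_C4-2B cells and 7.46% of LNCaP_FGC cells. After PEG3 it was among the most uneven of the 10: in LNCaP_C4-2B 17 cells had 3 or more UMIs and the richest 11, and its variance was 2.13 times the mean, above 99.8% of genes of like mean. In LNCaP_FGC the variance was 1.5 times the mean.

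Other genes of 11p15 were also higher in LNCaP_C4-2B. SLC22A18, a maternally expressed transporter between CDKN1C and PHLDA2, had 750 UMIs in LNCaP_C4-2B and 293 in LNCaP_FGC, a ratio of 2.56 (2.23 to 2.94). ASCL2, a transcription factor of placenta and intestinal stem cells, had 759 UMIs in LNCaP_C4-2B and 12 in LNCaP_FGC, 63.2-fold higher (36.0 to 123). NAP1L4, next to PHLDA2 on its other side, was near the median gene (log2 -0.08), and ZNF195, the lowest in the windows of PHLDA2 and CDKN1C, was at -0.61. In all, 8 of the 11 genes within 500 kb of KCNQ1OT1 were called higher and 0 lower, PHLDA2 and CDKN1C among the 8, where 26% of all measured genes were higher and 26.4% lower. CD81-AS1 and TRPM5, also among the 8, had at most 10 UMIs in a library. By CPM alone, with no shift to the median gene, TRPM5 (ratio 1.11) and CD81 (1.32), another of the 8, were short of 1.5-fold.

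GRB10 encodes an adaptor that restrains insulin and growth factor receptors, and has an imprinted expression that differs between tissues, with the paternal copy used in human brain. It had 899 UMIs (25.6 CPM) in LNCaP_C4-2B and 1754 UMIs (49.9 CPM) in LNCaP_FGC, 1.95-fold lower by CPM (1.80 to 2.12). Relative to the median gene its log2 ratio was -0.48, short of the limit, so it was not called. A UMI was seen in 34.3% of LNCaP_C4-2B cells and 53.9% of LNCaP_FGC cells. DDC, the neighboring gene for dopa decarboxylase, had 403 UMIs in LNCaP_C4-2B and 1089 in LNCaP_FGC, a ratio of 0.370 (0.329 to 0.415). It was also the gene most like GRB10 over LNCaP_FGC cells, at a weak r of 0.18.

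ETV1, an ETS-family factor activated by rearrangement in LNCaP, divides the LNCaP_FGC cells, while LNCaP_C4-2B had 0 ETV1 UMIs. At the fixed depth 622 LNCaP_FGC cells had no ETV1 UMI, 258 had 1 and 743 had 2 or more, and the groups at the ends were compared. Of the 10 imprinted genes 8 were measured. PEG3 was called lower and CDKN1C higher in the cells without ETV1, where over 14805 measured genes 7.68% were lower and 9.13% higher. The log2 ratio of the median gene was 0.08. Both groups of cells are from 1 library, and cells without a UMI can still express ETV1.

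PEG3 was at 84.0 CPM (622 UMIs) in cells without ETV1 and 233 CPM (2063 UMIs) in cells with 2 or more, a ratio of 0.360 (0.329 to 0.394). Since PEG3 varied between cells far more than by counting error, this interval is too narrow. The ratio was 0.315 with another random seed and 0.310 with no thinning, both outside it. The share of cells with a PEG3 UMI differed much less, 46.8% (42.8 to 50.8) of cells without ETV1 and 54.1% (50.4 to 57.7) of cells with 2 or more. Cells with at least 10 PEG3 UMIs were 5 of 622 (0.804%, 0.262 to 1.87) without ETV1 and 54 of 743 (7.27%, 5.51 to 9.38) with 2 or more. With those cells left out, which was also decided after seeing the data, PEG3 was at 63.9 CPM in cells without ETV1 and 94.4 CPM in the others, a ratio of 0.677 (0.602 to 0.760), still past the limit relative to the median gene. Along ETV1 counts of 0, 1, 2, 3, 4 or 5, and 6 or more, PEG3 was at 84.0, 158, 141, 231, 319 and 263 CPM. At the same depth LNCaP_C4-2B had 3.08 CPM, so the LNCaP_FGC cells without ETV1 were well above it. Over LNCaP_FGC cells the Pearson r of PEG3 with ETV1 was 0.18, weaker than with KLK3 (0.25). KLK3 also differed by ETV1 count, from 207 CPM in cells without ETV1 to 1683 CPM in those with 6 or more. ETV1 itself was at 141, 142 and 144 CPM in cells with 0, 1 and 2 PEG3 UMIs, so it was flat over those cells.

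ZIM2, MIMT1 and AC006115.2 were also lower in the cells without ETV1. AC006115.2 was at 28.0 CPM in cells without ETV1 and 76.8 CPM in cells with 2 or more, a ratio of 0.364 (0.310 to 0.426). As AC006115.2 was far higher in the cells rich in PEG3, this interval is likewise too narrow. ZIM2 had a ratio of 0.355 (0.163 to 0.711) and MIMT1 one of 0.381 (0.224 to 0.623).

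CDKN1C went the other way. It was at 7.43 CPM (55 UMIs) in cells without ETV1 and 2.38 CPM (21 UMIs) in cells with 2 or more, a ratio of 3.13 (1.86 to 5.45), and 7.40% of the cells without ETV1 and 2.42% of the cells with 2 or more held a UMI. Along the same ETV1 counts it was at 7.43, 7.49, 4.20, 1.42, 0.740 and 3.43 CPM, and LNCaP_C4-2B was at 10.0 CPM. The last 3 of those groups held 3, 2 and 4 UMIs, too few to order. Under a minimum of 100 UMIs in place of 10, CDKN1C was not measured. The other measured genes were not called. KCNQ1OT1 had a ratio of 1.24 (1.10 to 1.40), NDN 1.22 (0.993 to 1.5), SNRPN 1.03 (0.964 to 1.10), PHLDA2 1.00 (0.913 to 1.10), GRB10 0.989 (0.857 to 1.14) and MEST 0.820 (0.551 to 1.21). PEG10 and PLAGL1 had 7 and 4 UMIs over both groups and were not measured.

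**Figure D5:**
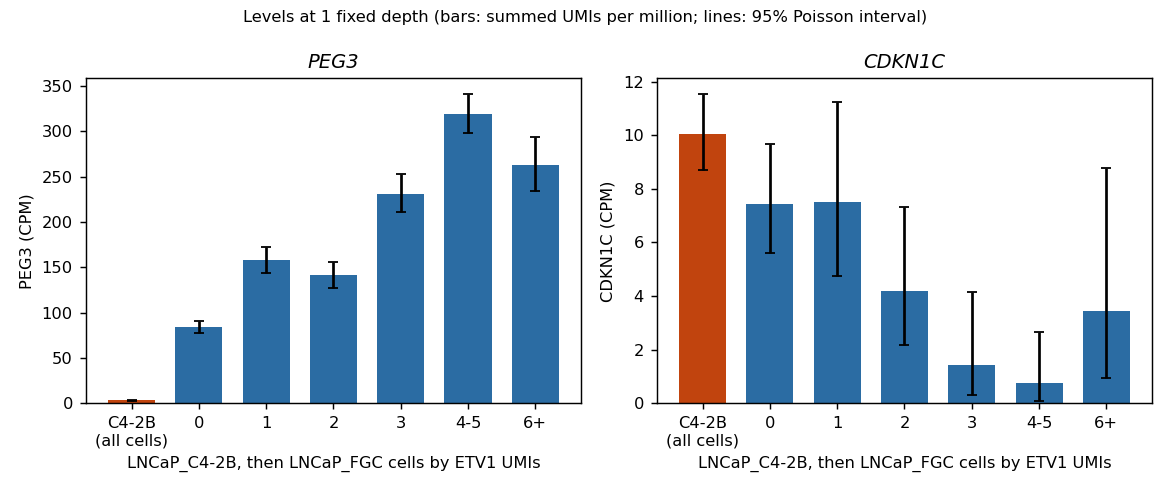
PEG3 and CDKN1C levels (CPM, linear axes) at the fixed depth in all LNCaP_C4-2B cells (orange) and in LNCaP_FGC cells by their ETV1 UMIs (blue), with 95% Poisson intervals. PEG3 is at 84.0 CPM in LNCaP_FGC cells with no ETV1 UMI and 319 CPM in those with 4 or 5, all far above the 3.08 CPM of LNCaP_C4-2B, while CDKN1C is highest in LNCaP_C4-2B at 10.0 CPM and in LNCaP_FGC cells with 0 or 1 ETV1 UMI.

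Cell cycle phase moved with both genes. PEG3 was higher in G1 than in the other phases by 1.99-fold (1.32 to 3.04) in LNCaP_C4-2B and 2.01-fold (1.91 to 2.12) in LNCaP_FGC. The share of LNCaP_FGC cells with a PEG3 UMI differed less, at 63.3% in G1, 60.5% in S and 57.9% in G2M. CDKN1C was higher in G1 by 2.73-fold (2.18 to 3.43) in LNCaP_C4-2B and 1.69-fold (1.24 to 2.31) in LNCaP_FGC. Of all measured genes, 22.6% in LNCaP_C4-2B and 23.5% in LNCaP_FGC were past 1.5-fold in G1, in either direction from the median gene. G1 cells were 40.8% of the cells without ETV1 and 46.4% of those with 2 or more. Within G1 the ratio of PEG3 by ETV1 status was 0.273 (0.239 to 0.311), within S 0.476 (0.395 to 0.572) and within G2M 0.669 (0.551 to 0.811). The PEG3 intervals of LNCaP_FGC in this paragraph are likewise too narrow for its uneven spread over cells. The CDKN1C ratio was 5.58 (2.65 to 13.2) within G1, and within S (1.93, 0.743 to 5.38) and G2M (1.25, 0.269 to 6.30) its intervals include no difference. SNRPN was higher in G1 than in the other phases by 1.06-fold in LNCaP_C4-2B and 1.28-fold in LNCaP_FGC. GRB10 in LNCaP_C4-2B was at 27.7 CPM in G1, 18.2 CPM in S and 28.0 CPM in G2M, so S stood apart there, and in LNCaP_FGC it was at 59.4 CPM in G1, 46.7 CPM in S and 40 CPM in G2M. KCNQ1OT1 was likewise low in S in LNCaP_C4-2B, at 59.4 CPM in G1, 39.7 CPM in S and 59.9 CPM in G2M, and in LNCaP_FGC it was at 72.2 CPM in G1, 51.8 CPM in S and 57.4 CPM in G2M. PEG10 was lower in G1 in LNCaP_C4-2B, at 0.494 of its level in the other phases (0.298 to 0.794).

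Of 79 other genes held to be imprinted, 74 were in the files and 47 were measured, 12 higher and 14 lower in LNCaP_C4-2B, near the 26% higher and 26.4% lower of all measured genes, and their median log2 ratio was -0.25 against that of all measured genes. Among those with at least 20 CPM in either line, the highest ratios after ASCL2 and SLC22A18 were TSSC4 (1.52), CD81 (1.32) and GNAS (1.02), of which GNAS was not called. The lowest was SLC22A3, an organic cation transporter, with 96 UMIs in LNCaP_C4-2B and 1009 in LNCaP_FGC, a ratio of 0.0951 (0.0764 to 0.117). Its chromosome 6 neighbor IGF2R, the receptor that clears IGF2, had 1233 UMIs in LNCaP_C4-2B and 6538 in LNCaP_FGC, a ratio of 0.189 (0.177 to 0.200). By ETV1 status 38 of these genes were measured, 6 higher and 5 lower in cells without ETV1, where over all measured genes 9.13% were higher and 7.68% lower. Their median log2 ratio was -0.01 relative to that of all measured genes. The 6 called higher had at most 30 UMIs in either group of cells, so these calls rest on few counts. Among the lower, SLC22A3 was at 5.40 CPM in cells without ETV1 and 49.1 CPM in those with 2 or more, a ratio of 0.110 (0.0776 to 0.152). DDC, also lower, had a ratio of 0.621 (0.516 to 0.746). FAM50B, GNAS-AS1 and DIO3 were named after their values were seen. FAM50B had 332 UMIs in LNCaP_C4-2B and 104 in LNCaP_FGC. GNAS-AS1 had 75 in LNCaP_C4-2B and 3 in LNCaP_FGC, a ratio of 25.0 (8.23 to 124). DIO3 had 0 in LNCaP_C4-2B and 40 in LNCaP_FGC. On the floor of 3 UMIs DIO3 was 13.3-fold lower in LNCaP_C4-2B, but 7-fold lower without the LNCaP_FGC cell that held 19 of the 40. With all cells, the exact interval put it at least 10.4-fold lower. IGF2, DLK1 and MAGEL2 had 0 UMIs in both lines, and the upper limit of the Poisson interval was 0.105 CPM in each.

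Of 20 factors that set or keep imprints, 16 were measured, 3 higher and 4 lower in LNCaP_C4-2B, no larger a share in either direction than the 26% higher and 26.4% lower of all measured genes. TET2, an enzyme that oxidizes methylated cytosine, had a ratio of 0.350 (0.302 to 0.405), UHRF2, a reader of methylated DNA, 0.397 (0.354 to 0.445), and ZNF445, a zinc finger protein that protects imprints, 0.424 (0.374 to 0.481). YY1 was the highest of those with at least 20 CPM, at 1.15 (1.11 to 1.19) by CPM. TET1 (2.22, 1.85 to 2.69), with 367 UMIs in LNCaP_C4-2B and 165 in LNCaP_FGC, was named after its values were seen. DNMT1, the maintenance methyltransferase, had 5776 UMIs in LNCaP_C4-2B and 7355 in LNCaP_FGC and was near the median gene (log2 0.14).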

How the data were processed

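Single-cell RNA-Seq libraries were made with 10x Genomics 3′ v3.1 chemistry and, by the submitters' processing notes, mapped to GRCh38 using Cell Ranger 6.0 and Seurat 5.011; the annotation release and strand setting are not given in the sources used here. The authors filtered cells by genes, reads, hemoglobin, ribosomal and mitochondrial share and SCDS doublet score, then drew equal cell numbers and thinned counts to a common mean. The deposited matrices hold these thinned UMI counts without further scaling.

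UMIs were summed over cells and scaled to CPM, and ratios were given exact conditional intervals, levels Poisson intervals and shares Clopper-Pearson intervals (Python 3.11.15, numpy 2.4.6, pandas 2.3.3, scipy 1.17.1, matplotlib 3.10.9). No doublet caller was run. For ETV1 status, cells were thinned to 11901 UMIs, leaving out 185 LNCaP_C4-2B and 227 LNCaP_FGC cells. Phases came from Seurat 5.3.0 with 43 S and 54 G2M genes (R 4.3.3), and TMM factors from edgeR 4.0.16. Positions came from GENCODE release 44 (80.4% of measured genes). Functions were tested on simulated data.

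The genes, lists and tests were chosen with earlier results of these data known. All 10 genes were named. Of the other imprinted genes and factors, those with at least 20 CPM and the highest or lowest ratios were named, of neighbors the nearest and the extremes, and by likeness the highest correlations.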

Additional observations from a re-analysis of the deposited data

Results flagged for a closer look

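KCNQ1OT1 in G2M stood at 1.14 of its level in the other phases in LNCaP_C4-2B and at 0.889 in LNCaP_FGC, opposite directions with counting intervals apart from 1. Those intervals are too narrow, since KCNQ1OT1 was more uneven over cells than most genes of like mean. G2M was above S in both lines, at 59.9 against 39.7 CPM in LNCaP_C4-2B and 57.4 against 51.8 CPM in LNCaP_FGC. The opposite directions thus depend on pooling S with G1, which was at 59.4 CPM in LNCaP_C4-2B and 72.2 CPM in LNCaP_FGC. PHLDA2 in G1 stood at 1.13 of its level in the other phases in LNCaP_C4-2B and at 0.871 in LNCaP_FGC. In both cases the difference between the lines was not tested, as each has 1 library.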

How the results depend on the processing

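Calls are made relative to the median gene, so TMM, median-of-ratios and totals without ribosomal protein and mitochondrial genes, which put that gene at -0.03, -0.01 and -0.33 (log2), could not change them and test nothing. Read on CPM alone, a choice made after seeing the data, 5 were higher, without SNRPN and NDN, and 2 lower, GRB10 with PEG3. Leaving out the 5% deepest cells or the cells rich in PEG3 gave 7 higher and 1 lower. G1 cells only gave 2 lower, GRB10 with PEG3, and 6 higher, without SNRPN. At 2-fold 5 were higher, and with at least 100 UMIs 6. By ETV1 status, CDKN1C alone was higher and PEG3 alone lower in the main comparison. PEG10 made 2 higher with no thinning or with at least 1 ETV1 UMI as positive. MEST made 2 lower with another random seed, with at least 4 ETV1 UMIs as positive or in G1 cells only. With at least 100 UMIs 0 were higher, since CDKN1C then went untested. Of 60 line ratios under other scalings or cells, 26 left the counting interval of the main value, and of 56 ETV1 ratios 13. None of the called genes changed sign in any. The 60 include TMM, median-of-ratios and the reduced totals, each of which shifts all genes by 1 constant. Leaving the interval under those scalings reflects the size of the shift and the UMI count, and tests nothing about a gene. The setting without cells rich in PEG3 was chosen after seeing the data. Depth limits PEG10 and PLAGL1, with at most 90 UMIs in a library. No paired analysis was possible because each line had 1 library.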
